A study of Homo sapiens with 11 samples.

Results

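A set of 3835 genomic intervals bound by FOS in the pancreatic cancer line CFPAC1, with neither acetylated chromatin nor the factor MYRF called on them, is described here. An interval counted as reproducible when overlapping peaks of both FOS libraries merged into it, which gave 26211 intervals. Of these, 3835 (14.6%) overlapped no peak of any of the 4 H3K27ac lists and no peak of any of the 4 MYRF lists by 1 bp or more, and they are called unmarked below. The rest were 18275 intervals (69.7%) with H3K27ac and no MYRF, called acetylated below, 3909 (14.9%) with both, and 192 (0.733%) with MYRF alone. The presence and absence of peaks chose the unmarked intervals, so their lack of H3K27ac and MYRF is a definition and not a result.

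FOS was mapped by chromatin immunoprecipitation and sequencing (ChIP-seq) in a clone of CFPAC1 that carried the lentiCRISPRv2 vector as a control, and H3K27ac was mapped in that control clone and in a clone that received Cas9 with a guide against MYRF. MYRF was mapped with a home-made antibody in the original, unedited CFPAC1 and HPAF2 lines. All cells came from human pancreatic ductal adenocarcinoma, CFPAC1 grown in IMDM and HPAF2 in RPMI. Each of the 5 groups has 2 libraries that the labels do not describe as separate cultures. FOS was not mapped in the knockout clone, and each genotype is 1 clone, so clone and genotype cannot be told apart. The FOS lists held 29087 and 36349 peaks, the 4 H3K27ac lists between 107586 and 116466, and the 4 MYRF lists between 3702 and 4743. The lists give no read counts, so the depth behind a peak is unknown and an absent peak is a peak not called. H3K27ac peaks lay within 1 kb of an end of 6 of 7 epithelial and ductal marker genes in all 4 lists, and of CFTR in the 2 knockout lists only. Of the markers of other cell types, VIM, COL1A1, ZEB1, CD3E and CD14 had such a peak in all 4 lists, PECAM1 in 3, CPA1 in the 2 control lists only, and PTPRC, CDH5, PRSS1, INS and GCG in 0. The share of all genes with such a peak was not analysed here, so these counts do not identify a cell type.

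FOS pairs with a JUN protein to form AP-1, a dimer that grips a short palindromic DNA element through basic leucine zippers and is made within minutes of growth or stress signals. In epithelial cancers AP-1 is known mainly for sitting at distal enhancers beside other factors. H3K27ac, the acetylation of lysine 27 on histone H3, is laid down by the coactivators CBP and p300 and marks active promoters and enhancers, so a bound site without it is often described as poised, inactive or only weakly engaged. MYRF is a membrane-tethered factor that frees its DNA-binding part by self-cleavage.

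The AP-1 element was searched for as TGANTCA, with any base at N, a pattern that reads the same on both strands. RefSeq promoter windows, each reaching from 250 bases before to 50 bases after a transcription start on GRCh38.p14, were the sequences available for unmarked intervals. There were 45 such windows over 44 unmarked intervals, 22 at protein-coding genes and 23 at other genes. The stretches below carry the element, in capitals, inside the part of the window that the FOS interval covers, and they are shown because the element is what AP-1 recognises. They are written 5′ to 3′ on the strand of the gene.
FANK1-AS1: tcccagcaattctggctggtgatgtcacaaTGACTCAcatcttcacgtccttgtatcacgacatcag
LOC105376016: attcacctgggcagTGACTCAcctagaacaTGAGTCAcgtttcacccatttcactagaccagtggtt
PMCH: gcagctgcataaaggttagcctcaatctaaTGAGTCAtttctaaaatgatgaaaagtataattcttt
LINC00607: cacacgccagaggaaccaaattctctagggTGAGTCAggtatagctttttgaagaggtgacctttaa
KRTAP4-6: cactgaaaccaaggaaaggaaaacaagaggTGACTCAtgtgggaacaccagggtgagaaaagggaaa
LOC124902428: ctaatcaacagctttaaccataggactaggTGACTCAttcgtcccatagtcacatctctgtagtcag
SERPINB7: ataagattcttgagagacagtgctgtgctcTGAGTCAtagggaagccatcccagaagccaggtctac
UNC5B-AS1: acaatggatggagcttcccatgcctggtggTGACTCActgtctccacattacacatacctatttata
TNFRSF9: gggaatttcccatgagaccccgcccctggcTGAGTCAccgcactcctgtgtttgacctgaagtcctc
In order, they lie at chr10:125973403-125973469 (minus strand), chr9:32738932-32738998 (plus), chr12:102197891-102197957 (minus), chr2:215843586-215843652 (minus), chr17:41140704-41140770 (minus), chr10:59361822-59361888 (plus), chr18:63775349-63775415 (plus), chr10:71218333-71218399 (minus) and chr1:7940847-7940913 (minus). The stretch of LOC105376016 crosses the annotated start and holds 2 copies, and the others lie upstream of the start of their gene.

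The whole 300-base window of ARGLU1-DT, a non-coding gene on the plus strand at chr13:106617560-106617859, is shown because it lay entirely inside an unmarked interval and held 2 copies of the element.
ARGLU1-DT: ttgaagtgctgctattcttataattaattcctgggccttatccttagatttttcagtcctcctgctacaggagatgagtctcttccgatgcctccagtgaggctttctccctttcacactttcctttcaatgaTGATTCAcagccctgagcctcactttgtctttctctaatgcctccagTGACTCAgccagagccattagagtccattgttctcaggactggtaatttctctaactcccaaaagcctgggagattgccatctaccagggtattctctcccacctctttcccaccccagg
The interval over it had a FOS fold enrichment of 6.88 in replicate 1 and 5.63 in replicate 2, and the nearest H3K27ac peak lay 28835 bp away. Both FOS summits lay 52 bp from the nearer copy. Fold enrichment is the authors' ratio of signal at the summit to the background their peak caller estimated.

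TGANTCA was present in 28 of the 45 windows (62.2%, Wilson 95% interval 47.6 to 74.9). Over all 35116 RefSeq promoter windows it was present in 7.71%, and over the 1502 windows that overlapped an acetylated FOS interval in 30.03% (27.76 to 32.39). Among windows wholly inside a FOS interval it was present in 8 of 11 unmarked (72.7%, 43.4 to 90.3) and 272 of 526 acetylated (51.7%, 47.4 to 56.0). These 95% intervals overlapped. Counting only bases inside the FOS interval, 23 of 45 windows (51.1%) held a copy, against 412 of 1502 (27.4%) at acetylated intervals. Per kb of covered window there were 2.98 copies at unmarked intervals, 1.63 at acetylated intervals and 0.275 over all windows. On the strand of the gene, the nearest copy in those 23 windows read TGAGTCA in 12, TGACTCA in 9 and TGATTCA in 2. TGAGTCA and TGACTCA are the same site read on opposite strands. In the 16 windows that held both a replicate 1 summit and a copy, the median distance between them was 59 bp, and the replicate 2 summit lay a median of 101.5 bp from the same copy. These shares were noticed in the data and carry no test.

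The comparison that had been planned, an element within 50 bp of the summit, could be made only where that stretch fell wholly inside a promoter window. It held the element in 5 of 14 unmarked and 76 of 288 acetylated intervals, an odds ratio of 1.55 (95% interval 0.504 to 4.77, two-sided Fisher's exact test p = 0.54). Around the replicate 2 summit the direction turned, with 2 of 10 against 76 of 281 (odds ratio 0.674, 0.140 to 3.25, Fisher's exact test p = 1). Within 100 bp of the replicate 1 summit it was 4 of 4 against 80 of 152 (odds ratio 8.11, 0.429 to 153, Fisher's exact test p = 0.12). With so few windows, the 95% interval of the odds ratio held 1 in each case, so these data cannot show a difference in the element near the summit between the classes. The sequence of the other unmarked intervals was not analysed here.

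Among the protein-coding genes with the element inside an unmarked interval, PMCH encodes the precursor of melanin-concentrating hormone, a hypothalamic appetite peptide. Its interval had folds of 6.66 and 7.65 and lay 51998 bp from H3K27ac. KRTAP4-6, a hair keratin-associated protein gene, had folds of 6.02 and 8.50 and lay 5898 bp from H3K27ac. ESYT3, which encodes an extended synaptotagmin of membrane contact sites, had folds of 4.24 and 6.59 and lay 85407 bp away. The gaps at PMCH and ESYT3 were above the median of 12309 bp over all unmarked intervals, and that at KRTAP4-6 was below it.
Others lay closer to H3K27ac. SERPINB7, an epidermal protease inhibitor gene, had folds of 4.16 and 5.89 with an H3K27ac peak 14 bp away. TNFRSF9, the gene of the T cell costimulatory receptor 4-1BB, had folds of 4.08 and 7.85 and a gap of 1010 bp. Of the 45 windows, 7 belonged to an interval within 1 kb of H3K27ac and 26 to one over 10 kb away. SLC4A4, which encodes a sodium bicarbonate cotransporter of duct cells, ABCD2, a peroxisomal transporter gene, BOC, a hedgehog co-receptor gene, FCRL2, TRIOBP and LOC728743 made up the rest of the coding genes with the element inside the interval.

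An unmarked interval could also overlap a promoter whose element it did not cover. At IL11, a cytokine gene of the interleukin 6 family, the interval (folds 5.92 and 5.36) covered 69 bases of the window, and the element lay 246 bp from the replicate 1 summit, outside the interval. The window of ANKRD24 with an internal start, at the strongest promoter-overlapping unmarked interval (folds 18.7 and 23.7), held no TGANTCA, nor did that of IGFL4 (folds 14.7 and 17.8). At ANKRD24 and IGFL4 FOS was therefore called with no copy of the element in the window searched. The replicate 1 summit lay outside that window at both, and the rest of each interval was not searched.

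FOS was weaker at unmarked than at acetylated intervals, although the ranges overlapped almost entirely. In replicate 1 the fold at unmarked intervals ran from 2.21 to 49.0 with a median of 5.01 (quartiles 4.18 and 6.32), and in replicate 2 from 2.11 to 53.4 with a median of 5.46 (4.42 and 7.02). At acetylated intervals the medians were 5.55 and 6.17, and at intervals with both H3K27ac and MYRF 7.25 and 8.22. Unmarked intervals were also narrower, with a median of 484 bp against 671 and 855 bp, and a wider interval has more room to overlap another peak.

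Ranked by fold and divided into 5 equal bins, the unmarked share in replicate 1 was 6.60, 12.6, 16.1, 19.3 and 18.5% from the strongest to the weakest bin. In replicate 2 it was 6.68, 11.2, 16.3, 19.1 and 19.8%. The strongest bin thus held the smallest share in both libraries, and the 2 weakest bins had overlapping intervals in each. Among the 100 strongest intervals 4 were unmarked in each replicate, and among the 1000 strongest 44 in each.

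**Figure D1:**
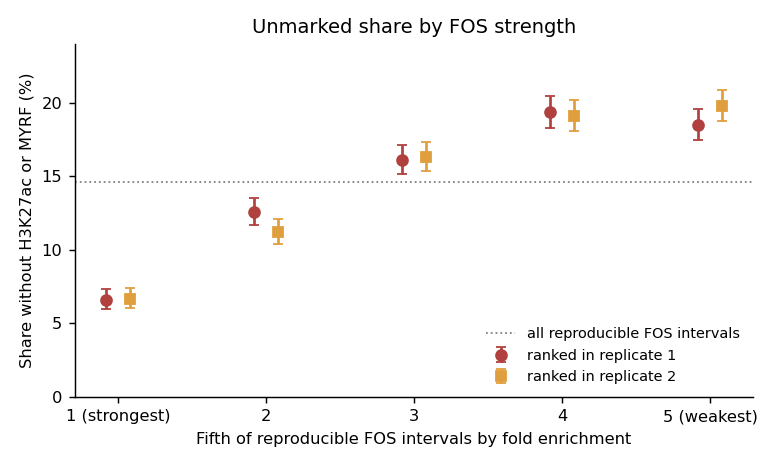
Share of reproducible FOS intervals without H3K27ac or MYRF (vertical axis, %) in 5 bins of FOS fold enrichment (horizontal axis, strongest first), ranked in each replicate; bars are Wilson 95% intervals and the dotted line is the share over all intervals, 14.6%. The share is 6.60% and 6.68% in the strongest bin and 18.5% and 19.8% in the weakest.

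Of the unmarked intervals 9.02% were among the top 20% of all FOS intervals by replicate 1 fold, against 18.3% of the acetylated (odds ratio 0.441, 95% interval 0.393 to 0.496, two-sided Fisher's exact test, adjusted p = 3.9e-50 over 6 comparisons). In replicate 2 the shares were 9.20% and 18.4% (odds ratio 0.449, 0.400 to 0.504, exact test, adjusted p = 8.8e-49). Regions of 1 genome are not replicates, so these tests speak for the libraries and not for the cell line. The size of the difference depended on what was compared. With H3K27ac and MYRF scored at the FOS summit alone in place of the whole interval, the odds ratios were 0.798 and 0.819. With FOS peaks limited to a -log10 q of at least 10 the replicate 1 odds ratio was 0.841 and no longer passed the exact test (adjusted p = 0.085), whereas replicate 2 did (0.697, adjusted p = 5.1e-04).

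The lack of H3K27ac was graded. Intervals without MYRF were called acetylated in 0, 1, 2, 3 or 4 of the lists in 3835, 1400, 1401, 1831 and 13643 cases. Along these steps the median replicate 1 fold was 5.01, 5.16, 5.19, 5.36 and 5.67, and the median replicate 2 fold 5.46, 5.62, 5.80, 5.89 and 6.36. Each step was small. The share within 1 kb of a protein-coding gene end was 2.37, 3.36, 3.57, 3.66 and 12.2%, so intervals acetylated in all 4 lists stood apart in gene-end position from those with fewer.

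Against the 1400 intervals acetylated in exactly 1 list, a comparison chosen after the data were seen, 4 of 6 contrasts lost their call. The odds ratio of lying in the top 20% by fold was 0.808 in replicate 1 and 0.814 in replicate 2, and that of lying near a gene end 0.700, each with an adjusted p of 0.062 by Fisher's exact test. A position inside a gene span kept its call by the exact test (0.841, adjusted p = 0.018), as did a FOS neighbour within 10 kb (0.715, adjusted p = 3.2e-05). The odds ratio for lying over 50 kb from a gene end was 0.988. Of the 18275 acetylated intervals used in the contrasts that follow, 13643 were acetylated in all 4 lists.

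The choice of H3K27ac lists changed the class of single intervals. With the 2 control lists alone, 4595 FOS intervals lacked both marks. Of these, 611 had an H3K27ac peak in 1 knockout list and 149 in both. With the 2 knockout lists alone, 4910 lacked both marks, of which 789 had a peak in 1 control list and 286 in both. FOS binding in the knockout clone was not measured, so acetylation and FOS cannot be compared there.

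The 20 unmarked intervals of best joint rank, by the worse of the ranks in the FOS lists, had folds of at least 17.2 in replicate 1 and 20.5 in replicate 2. The fold was higher in replicate 2 at 19 of the 20. Of these, 7 lay inside a protein-coding gene span and 9 outside every annotated gene, 8 were over 50 kb from a protein-coding gene end, and 12 were over 10 kb from H3K27ac. The first stands alone. It lay at chr20:63056664-63058063, in no annotated gene, and had folds of 49.0 and 53.4, the highest value of each FOS list among all peaks, marked or not. The nearest protein-coding gene end was that of BHLHE23, a basic helix-loop-helix factor gene, 49700 bp away, and the nearest H3K27ac peak of the 4 lists lay between 43781 and 44015 bp away. Where a fold this high comes from, repeated sequence or copy number included, was not tested.

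The next lay in varied settings. The interval at chr10:3062402-3063198, in the non-coding gene PFKP-DT, had folds of 27.7 and 35.3 and lay 3355 bp from H3K27ac. Upstream of the main start of NPAS4, an activity-dependent neuronal transcription factor gene, chr11:66417933-66419057 had folds of 25.003 and 32.39, inside the annotated span and 18814 bp from H3K27ac. Between genes, 128641 bp from WNT4, a Wnt ligand gene, chr1:22271738-22272425 had folds of 23.4 and 28.6 and a gap of 41090 bp. All 3 were higher in replicate 2 than in replicate 1.

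Inside ME1, which encodes cytosolic malic enzyme, chr6:83271164-83271822 had folds of 19.7 and 24.8 and lay 76935 bp from H3K27ac. Inside DTD1, a gene of a D-aminoacyl-tRNA deacylase, chr20:18648951-18649374 had folds of 19.0 and 21.9 and a gap of 59951 bp. A pair of separate intervals lay inside CFAP99, a cilia and flagella gene, where chr4:2429781-2430215 (folds 22.8 and 25.3) and chr4:2430427-2431070 (17.8 and 20.7) did not touch. Which exon or intron these lie in was not analysed here.

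Some of the strongest were close to acetylated chromatin. Of the 20, 3 had an H3K27ac peak within 1 kb. The interval 46265 bp from ERBIN, a scaffold of ERBB2, had folds of 22.2 and 24.2 and gaps of 484 and 122 bp in the control lists, but 3510 and 4987 bp in the knockout lists. The interval 104533 bp from FAT1, a giant cadherin gene, had folds of 19.7 and 24.7 and gaps of 275, 863, 7221 and 762 bp. Near DBNDD1 only control list 2 had a peak close by, at 749 bp.

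**Figure D2:**
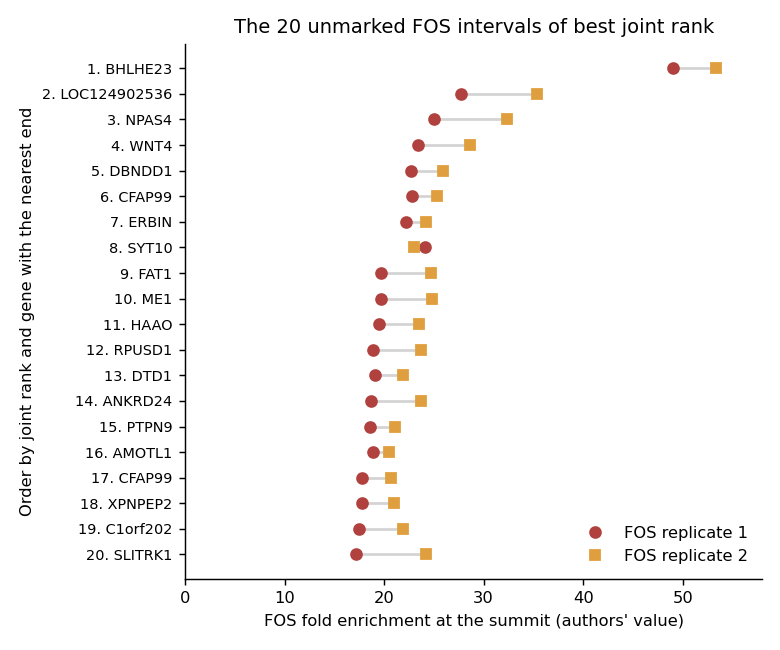
FOS fold enrichment in replicate 1 (circles) and replicate 2 (squares) for the 20 unmarked FOS intervals of best joint rank, each named by the protein-coding gene whose end is closest (vertical axis), on a linear scale from 0 (horizontal axis). The first, nearest BHLHE23, has 49.0 and 53.4, and the other 19 lie between 17.2 and 35.3.

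As a description across intervals, which share libraries, Spearman's rho between the folds of the replicates was 0.674 over 3835 unmarked and 0.784 over 18275 acetylated intervals. Summits shifted by a median of 53 and 57 bp. Single FOS peaks without either mark were found again in the other library at a lower rate, with Wilson intervals that did not overlap. From replicate 1, 85.9% of 4957 peaks without marks and 94.3% of 24130 with a mark were found again, and from replicate 2, 54.4% of 7260 and 77.7% of 29089. Among peaks below the median fold of their list the order was the same, 79.5 against 88.7% and 38.9 against 56.9%. Peaks not found again lacked both marks in 33.5% (replicate 1) and 33.8% (replicate 2), against 15.8 and 14.9% of those found again. How many unmarked intervals are false calls was not tested.

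Many unmarked intervals were far from acetylated chromatin, although the distance depended on the rule. The median distance to the nearest H3K27ac peak was 17060 and 23050 bp in control lists 1 and 2, 23267 and 20687 bp in knockout lists 1 and 2, and 12309 bp to the nearest of any (quartiles 2430 and 38494). This last median was 20960 bp when only H3K27ac peaks with a -log10 q of at least 10 counted and 19914.5 bp when intervals within 1000 bp of H3K27ac were left out. It was 241 bp, measured from the summit, when the marks were scored at the FOS summit alone. Each of these settings chose its own unmarked set, of 7699, 3064 and 8032 intervals in turn. In the last set an interval could itself overlap H3K27ac away from its summit. Of the 3835, 771 (20.1%) lay within 1 kb, 54.8% over 10 kb away and 768 (20.03%) over 50 kb away. The MYRF lists held far fewer peaks than the H3K27ac lists, and the nearest MYRF peak lay a median of 161575 bp away. MYRF peaks lay within 1 kb of 14 intervals. How much of the longer distance goes with the lower peak number was not tested. The median replicate 1 fold was 4.91 within 1 kb of H3K27ac, 4.95 from 1 to 10 kb, 5.08 from 10 to 50 kb and 5.17 beyond. In replicate 2 it was 5.42, 5.32, 5.58 and 5.63. The bins were not tested against each other.

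H3K27ac peaks were also sparser around unmarked than around acetylated intervals. At 2 kb from the summit, as a mean of both sides, H3K27ac peaks covered 1.42 to 1.83% of positions at unmarked intervals in the 4 lists. At acetylated intervals they covered 21.98 to 24.83%. At 20 kb, where the rule has no direct hold, this mean was 3.16 to 3.78% against 8.70 to 9.79%. The difference between the classes thus reached that far. Coverage over the genome or over all FOS intervals was not analysed here, so neither class can be set against a background. At the summit of acetylated intervals coverage dipped to 54.3 to 65.8%, from 66.2 to 74.8% at 400 bp on either side. At unmarked intervals the coverage at 400 bp was 1.04 to 3.31%. The classes were chosen on H3K27ac overlap, so this is a description.

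**Figure D3:**
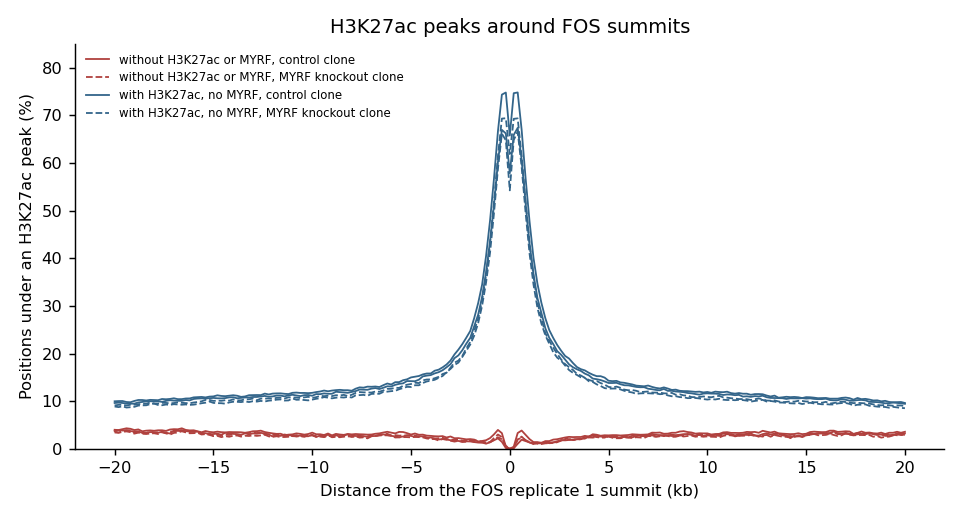
Share of FOS intervals with an H3K27ac peak (vertical axis, %) at each distance from the FOS replicate 1 summit (horizontal axis, kb), for unmarked (red) and acetylated (blue) intervals and the control (solid) and knockout (dashed) clone, 1 line per library. At 20 kb, as a mean of both sides, the 4 unmarked lines have 3.16 to 3.78% and the 4 acetylated lines 8.70 to 9.79%.

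The overlap threshold cut through a continuum. The 5 unmarked intervals closest to H3K27ac had gaps of 0 (touching), 0, 1, 2 and 3 bp and lay nearest LMO3, PPM1B, RSPO3, GATA6 and THEM4, with replicate 1 folds from 3.90 to 5.30. Of these, the interval 20951 bp from GATA6, the foregut factor of the classical pancreatic cancer program, missed peaks of the 4 lists by 13, 76, 14 and 2 bp. The 5 acetylated intervals with the shortest overlap shared 1, 2, 2, 2 and 2 bp with a peak and lay nearest IL12B, COL4A2, CREBBP, CETN3 and TMEM164, with replicate 1 folds from 2.93 to 6.32. With any H3K27ac peak within 1000 bp counted as acetylation, 3064 intervals stayed unmarked.

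Few unmarked intervals lay at gene starts. Protein-coding gene ends lay within 1 kb of 91 of 3835 (2.37%), against 1827 of 18275 acetylated intervals (10.0%), an odds ratio of 0.219 (0.177 to 0.271, Fisher's exact test, adjusted p = 5.6e-67). By transcription start, which the RefSeq windows gave on 23 chromosomes, the shares were 36 of 3645 (0.988%) and 1560 of 17410 (8.96%), an odds ratio of 0.101. At the far end of genes the shares were closer, 1.15 and 1.94%. H3K27ac marks active starts, so the rule itself removes intervals there, and the comparison describes the classes.

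Unmarked intervals were more often intergenic. The rule removes intervals at active starts, which can overlap a gene span and cannot lie over 50 kb from a gene end. It therefore bears on the contrasts of this paragraph, which describe the classes. None of them left out intervals at gene ends. A protein-coding gene span held 46.6% of unmarked and 54.5% of acetylated intervals (odds ratio 0.728, 0.679 to 0.780, Fisher's exact test, adjusted p = 4.4e-19). Outside every annotated gene of any type were 38.7 and 31.3%. Inside the span of a long non-coding RNA gene were 17.4 and 18.7%, and inside such a span but no protein-coding span 13.6% of each. More than 50 kb from any gene end were 46.8 and 36.7% (odds ratio 1.52, 1.42 to 1.63, exact test, adjusted p = 5.1e-31). Against intervals acetylated in exactly 1 list this last odds ratio was 0.988 (95% interval 0.874 to 1.12, exact test, adjusted p = 0.85), with no difference detected. Among unmarked intervals over 50 kb from H3K27ac, 72.5% were also over 50 kb from a gene end. Within 1 kb, from 1 to 10 kb and from 10 to 50 kb of H3K27ac the shares were 43.3, 34.3 and 43.1%.

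**Figure D4:**
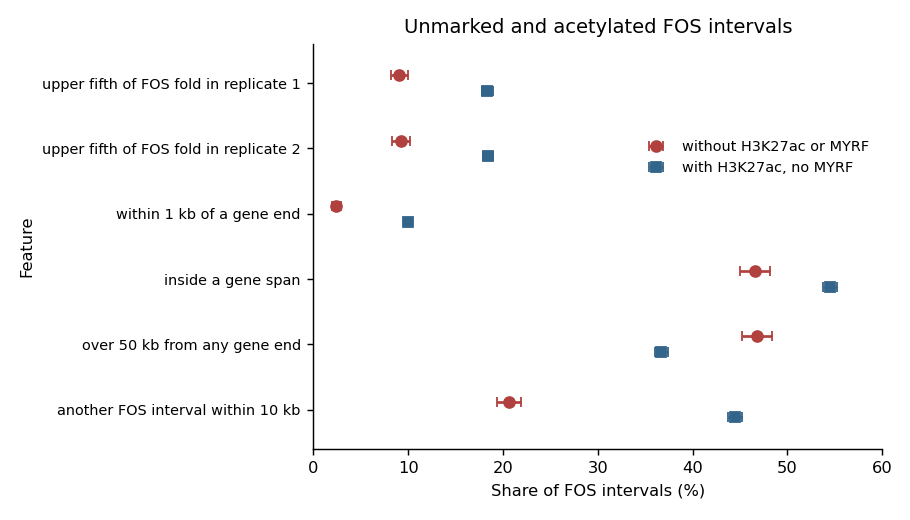
Share of FOS intervals (horizontal axis, %) with each of 6 features (vertical axis) among 3835 unmarked (red circles) and 18275 acetylated (blue squares) intervals, with Wilson 95% intervals. Unmarked intervals have the lower share for 5 features and the higher one, 46.8 against 36.7%, for lying over 50 kb from a gene end.

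The few at gene ends include genes of several tissues. Of the 91, the 8 of best joint rank lay at IGFL4, MUC5AC, SLC18A1, MFAP3, SLC7A2, MYO5A, HLA-DPB1 and ERLIN1. The interval 215 bp from an end of MUC5AC, the gel-forming mucin of gastric surface cells, had folds of 16.3 and 12.4 and lay 895 bp from H3K27ac. At SLC18A1, a vesicular monoamine transporter gene, the folds were 12.4 and 12.4 and the gap was 7188 bp. Near HLA-DPB1, of MHC class II, they were 8.93 and 12.3, with a gap of 6901 bp. At SLC7A2, a cationic amino acid transporter gene, they were 10.97 and 11.45. There the gaps to H3K27ac were 81518 and 1657 bp in control lists 1 and 2, and 2000 and 296 bp in knockout lists 1 and 2.

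Fewer unmarked than acetylated intervals had a close FOS neighbour. Another reproducible FOS interval lay within 10 kb of 20.6% of unmarked and 44.5% of acetylated intervals (odds ratio 0.324, 0.298 to 0.353, Fisher's exact test, adjusted p = 2.5e-176). For unmarked intervals within 1 kb of H3K27ac the share was 33.6%, and from 1 to 10 kb 40.9%. From 10 to 50 kb it was 6.82% and beyond 6.25%. Far from H3K27ac there is little room for an acetylated neighbour, so the rule bears on this contrast, which describes the classes. The median distance to the next FOS interval was 38800 against 12673 bp. Where a neighbour was taken at any distance, it was itself unmarked for 25.5% (24.1 to 26.9) of unmarked intervals and for 10.5% (10.07 to 10.96) of acetylated ones, beside 14.6% of all FOS intervals. Neighbours share domains and libraries, so these intervals count intervals and not independent events.

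Uninterrupted series of unmarked intervals along a chromosome, with no other reproducible FOS interval between them, were mostly short: 2147 stood alone and 998 in pairs. The longest had 7 members over 1882 kb of chromosome 10, around PCDH15, a protocadherin of hair cells, and ZWINT, a kinetochore gene. Their folds ran from 3.46 to 9.13 in replicate 1 and from 3.53 to 11.1 in replicate 2. A series of 6 on chromosome 2 spanned 454 kb with ADCY3, DNAJC27, EFR3B, POMC, the precursor of melanocortin peptides, and DNMT3A, a DNA methyltransferase. Of the other 2 series of 6, that on chromosome 4 overlapped no protein-coding gene, and that on chromosome 5 held ST8SIA4, SLCO4C1 and SLCO6A1. A series of 5 on chromosome 13 surrounded SLITRK1, a neuronal membrane protein gene.

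By chromosome, leaving out Y with 2 of 4 intervals, the unmarked share ran from 9.09% on chromosome 22 and 9.18% on chromosome 19 to 18.5% on chromosome 4 and 20.1% on chromosome 13. Chromosome 19 has 24.8 protein-coding genes per Mb of annotated length and chromosome 13 has 2.96. Over 23 chromosomes without Y, the unmarked share and gene density had a Pearson r of -0.697 and a Spearman rho of -0.727, given as a description because all points share the libraries. Copy number of these chromosomes in the clones was not analysed here.

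Long genes held the most unmarked intervals. Of 20037 protein-coding genes 1471 had at least 1 inside the span and 64 had 3 or more. SORCS2, a sortilin-family receptor gene of 550 kb on chromosome 4, had 7, with replicate 1 folds from 4.40 to 13.1 and replicate 2 folds from 4.59 to 11.4, beside 8 acetylated intervals. KCNIP4, which encodes a subunit of A-type potassium channels and spans 1220 kb, had 6 unmarked and 16 acetylated intervals. PRKG1, the gene of cGMP-dependent protein kinase I, had 6 unmarked and 3 acetylated over 1307 kb, and its unmarked intervals lay 10210 to 165363 bp from H3K27ac. ANK3 (ankyrin G), MACROD2, NAALADL2 and NAV3 had 5 each, and CAMK1D and CTNNA3 had 4 each. PRKG1 and NAV3 had more unmarked than acetylated intervals.

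Gene groups were described by the count of genes with an unmarked interval within 50 kb of the span, beside 19.1% of all 20037 protein-coding genes (9.79% within 10 kb). An acetylated FOS interval lay within 50 kb of 58.4% of all genes. No list was tested. Of 12 lists, 9 lay above and 3 below that share, and the lists differ in gene length and in shared intervals. AP-1 subunit genes had 2 of 15 (13.3%), JDP2 and BATF2, close to the share of all genes, and 14 of 15 had an acetylated FOS interval. The basal-like program of pancreatic cancer had 1 of 22, SPRR3, and 19 with an acetylated interval. The classical program had 5 of 24, close to the share of all genes, among them CDH17, ANXA10, ST6GALNAC1 and LYZ. Within 10 kb the counts were 0 for the basal-like and 1 for the classical program. Cytosolic ribosomal protein genes had 7 of 48. The shares of these 4 lists ran from 4.55 to 20.8%.

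Neuronal adhesion and synapse genes had 21 of 40 (52.5%), and 20 of 40 within 10 kb, but their median span was 963 kb against 24.1 kb for all genes, and longer genes offer more room. The best-ranked lay inside GRIN2A, an NMDA receptor subunit gene (folds 10.5 and 11.4, 110588 bp from H3K27ac), DLGAP1 (9.29 and 11.1), LSAMP (9.31 and 10.2) and NTM (7.59 and 11.9). Skeletal and cardiac muscle genes had 9 of 25, against 8 of 25 with an acetylated interval, the single list with more unmarked than acetylated. Its median span was 18.7 kb. PAX7, the satellite cell factor gene, had one 27759 bp away with folds of 12.9 and 16.9, and MYOG, myogenin, one 35029 bp away with 6.63 and 7.99. Inside TTN, the titin gene, the folds were 6.37 and 7.05, with H3K27ac 106095 bp away.

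Acinar genes had 8 of 20 against 11 with an acetylated interval. These genes belong to the enzyme-secreting cells of the exocrine pancreas. The interval 6948 bp from PNLIP, pancreatic lipase, had folds of 9.33 and 11.6 and lay 71996 bp from H3K27ac. Intervals also lay near NR5A2 (6.09 and 7.04), BHLHA15 (5.01 and 6.70) and CPB1 (4.67 and 5.20). HOX genes had 8 of 27 with either kind, but HOXC10, HOXC13, HOXC4 and HOXC6 share 1 interval with folds of 5.20 and 5.63, and within 10 kb only 1 HOX gene remained. Within 10 kb the acinar and muscle counts were 3 each.

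Matrix metalloproteinase and urokinase genes, textbook AP-1 targets, had 8 of 23 with an unmarked and 17 with an acetylated interval. An interval 6595 bp from MMP2, a gelatinase gene, had folds of 6.28 and 6.94. One interval, with folds of 4.71 and 4.74 and 460 bp from H3K27ac, lay 48212 bp from MMP1, the interstitial collagenase gene, and 15990 bp from MMP12. MMP1 had 3 unmarked intervals within 50 kb, 1 of them inside its span. Within 10 kb the count of this list was 4. Mesenchymal transition genes had 6 of 22, led by SNAI2 (48711 bp away, folds 9.67 and 10.7), PDGFRB (inside, 7.05 and 9.69) and CDH2 (inside, 7.27 and 7.37). Cytokine and chemokine genes had 6 of 25, among them IL18, IL11, IL20 and IL24, the last pair sharing 1 interval. Lymphoid and myeloid genes had 6 of 25, including SPI1, the PU.1 gene (inside, 6.11 and 5.40), and CSF1R, which shares its interval with PDGFRB.

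**Figure D5:**
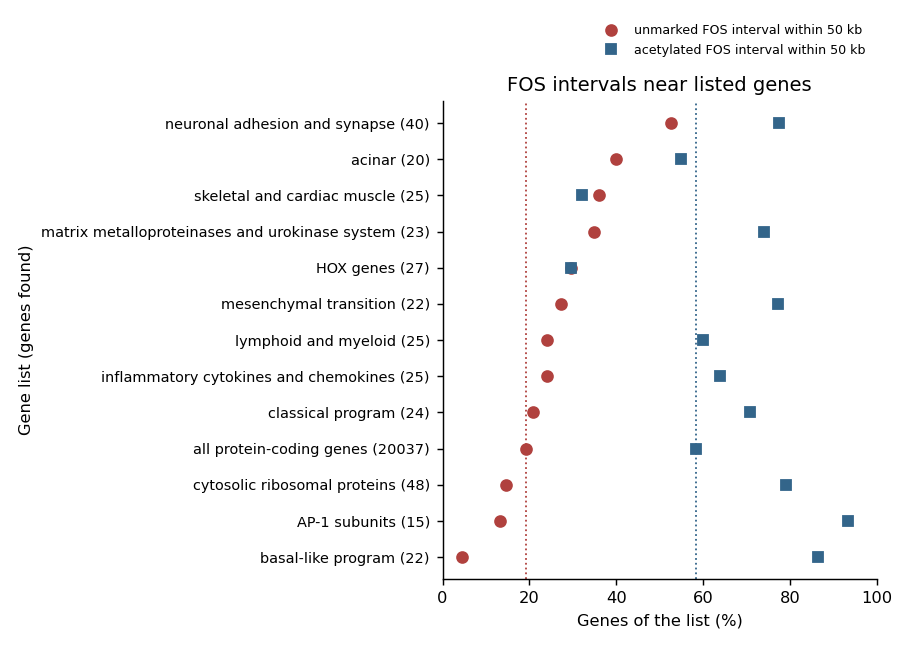
Share of the genes of each list (horizontal axis, %) with an unmarked (red circles) or an acetylated (blue squares) FOS interval within 50 kb of the gene span; the vertical axis names the lists with the number of genes found, and dotted lines mark all protein-coding genes. Unmarked shares run from 1 of 22 basal-like genes to 21 of 40 neuronal genes, beside 19.1% of all genes.

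Of 1562 microRNA hairpins in the RefSeq table, 4 overlapped an unmarked interval. They were MIRLET7A2 (folds 6.71 and 6.69, 238 bp from H3K27ac), MIR6860 (6.89 and 6.68, 7184 bp), MIR3663 (4.26 and 4.30, 7582 bp) and MIR5197 (4.08 and 3.72, 4611 bp). Expression of these or of any gene named above was not measured in these libraries.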

How the data were processed

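ChIP-seq peak lists of 10 libraries were used, and 1 HPAF2 input sample was not analysed here. The submitters' processing notes name MACS2 2.1.0.20150731 and Bowtie2 2.2.6, besides SAMtools and Trimmomatic 0.38, and the build GRCh38. The deposited lists give, per peak, a fold enrichment (a ratio at the summit), a −log10 p, a −log10 q and a score. The control used to call the CFPAC1 peaks is not given in the sources used here, and the lists hold no counts, so depth is unknown. Fold was used only within a list.

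The unmarked intervals, gene lists and tests were chosen with earlier results of these data known. Overlap meant at least 1 bp. Merged intervals and members differed from bedtools 2.31.1 in 0 cases. Class shares were compared by two-sided Fisher's exact tests with Benjamini-Hochberg adjustment over 6 comparisons, a threshold of 0.05 and Wilson 95% intervals, which cover counting only. The odds ratio code was tested on simulated data. Coordinates and genes came from the RefSeq GRCh38.p14 table (20037 protein-coding genes, of which spans but no exons were used), and starts and sequences from its promoter table. Of 319 listed genes 316 were found by symbol. No genome was given, so the motif search was limited to promoter windows.

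Named genes followed a rule: the 20 members of best joint rank, the 10 genes with the most members, the 8 best within 1 kb of a gene end, up to 4 per list, and the 5 on either side of the overlap threshold. An item that the rule selects is withheld and is not reported here. Promoter genes, series of intervals, microRNAs and single comparisons within lists were chosen after their values were seen. Alternatives covered the peak thresholds, the overlap rule, the lists used, strata of FOS fold and leaving out each replicate. Tests ran in scipy 1.17.1 under Python 3.11.15, tables in pandas 2.3.3 with numpy 2.4.6, and plots in matplotlib 3.10.9.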

Additional observations from a re-analysis of the deposited data

How the results depend on the processing

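The number of unmarked intervals depended on what counts as a peak. It was 7699 with H3K27ac peaks of a −log10 q of at least 10, 858 with FOS peaks of at least 10, and 8032 with the FOS summit in place of the interval. It stayed within 1.5 times of 3835 with either clone's H3K27ac lists alone or a 1000 bp margin. Leaving out a replicate gave 3844 to 7260 intervals, the highest without FOS replicate 1. With FOS peaks of at least 10 the odds ratio for the top 20% by replicate 1 fold was 0.841 (exact test, adjusted p = 0.085). Against intervals acetylated in 1 of 4 lists the odds ratios were 0.808 and 0.814 for the top 20% by fold in replicates 1 and 2 and 0.700 near gene ends (adjusted p = 0.062 each, Fisher's exact test), and 0.988 for lying over 50 kb from a gene end. The motif odds ratio was 0.674 at the replicate 2 summit. The cause of these changes was not tested. Genes near a member numbered 1961 within 10 kb in place of 3834 within 50 kb. For all 6 class comparisons, leaving out any replicate that allowed the comparison kept direction and call, as did strata of FOS fold for the 4 comparisons not on fold. The planned genome-wide motif comparison was not run, since no genome was given. No paired analysis was possible because the class comparisons are over regions and not over samples. Depth is unknown, so an absent peak cannot be told from one too weak to be called.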
